A study of Homo sapiens with 5 samples.

Results

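ATP2A3 and SGK1 were followed in SK-MEL28 cells, an established human melanoma line, on 5 two-colour oligonucleotide arrays. The genes were chosen for their role in calcium and ion handling, and from their spot values and log2 ratios on these same arrays, so their values are given as a description, without a test. All probes annotated to either gene were taken, which were 3 of 3048 probes and 2 of 2078 named genes. ATP2A3, on chromosome 17, has 2 probes annotated to the same transcript, called here the brighter and the dimmer probe. SGK1, on chromosome 6, has 1 probe. Each probe was spotted 4 times, so that 60 spots carried the values over the 5 arrays. Every array compared treated SK-MEL28 cells, labelled with Cy5, with untreated SK-MEL28 cells, labelled with Cy3. On 3 arrays the treated cells had received cisplatin, a platinum drug that crosslinks DNA, and on 2 arrays cisplatin combined with electroporation. Electroporation opens the plasma membrane with short electric pulses, here in 8 pulses, each lasting 100 µs, with a field of 1300 V/cm and a rate of 1 Hz. The drug dose and the time to harvest were not stated in the labels, and none of the arrays analysed here carried cells that were pulsed without the drug. All cells were of 1 line, and nothing in the labels says that replicates came from separate cultures, so the spread between arrays may be technical.

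ATP2A3 encodes SERCA3, a pump of the endoplasmic reticulum membrane that uses ATP to move calcium from the cytosol into the store. Its sister ATP2A2 encodes SERCA2, the form found in most cell types, whereas SERCA3 is best known from blood, endothelial and epithelial cells. Membrane pulses let calcium enter the cytosol, and pumps of this family take part in clearing it. SGK1 encodes the serum- and glucocorticoid-regulated kinase, whose RNA is induced by serum, glucocorticoids, cell shrinkage and other stress. The kinase is activated downstream of phosphoinositide 3-kinase, and its targets include the transcription factor FOXO3 and the ubiquitin ligase NEDD4L. Phosphorylated NEDD4L removes fewer sodium channels from the cell surface. Melanoma cells are known to use this pathway beside AKT.

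On each array, between 1535 and 1843 probes stood above background in Cy3 and between 1216 and 1824 in Cy5, and 1461 probes did so in at least 1 channel on every array. All 3 probes of ATP2A3 and SGK1 were among the 1461. Of 14 melanocyte lineage markers, 10 were measured and 7 stood above background on every array, among them MLANA, TYRP1, MITF and SOX10. Of the markers of other cell types, 3 of 4 measured for fibroblasts and 3 of 5 for leukocytes were above background. So were 3 of 4 for epithelium and 3 of 5 for endothelium, and none passed the test in any comparison. Over all probes, 1461 of 3048 were above background, and these counts do not identify a cell type. The second electroporation array stood apart. On it, 766 spots differed by over 4-fold in Cy3 from the median of their probe, against 15 to 108 on the other arrays, and 719 of these were the last listed spot of a probe. Values of ATP2A3 and SGK1 on this array, and those of other genes that moved most, are given also without the last listed spots. The arrays measure the share of a transcript in the RNA, so that fewer cells with a transcript and less of it per cell cannot be told apart.

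SGK1 RNA is started from several promoters, and the sequence at the first listed start site is shown because the gene is known for induction at the level of transcription. RefSeq (GRCh38.p14) gives 3 start windows of 300 bases for SGK1, each from 250 bases before to 50 after the start, all on the minus strand. Which of them the transcript on the array uses was not determined. In the window at chr6:134174817-134175116, capitals mark GGGCGG, the core of a GC box, and TATAA, the core of a TATA box, each on either strand.
SGK1 window 1: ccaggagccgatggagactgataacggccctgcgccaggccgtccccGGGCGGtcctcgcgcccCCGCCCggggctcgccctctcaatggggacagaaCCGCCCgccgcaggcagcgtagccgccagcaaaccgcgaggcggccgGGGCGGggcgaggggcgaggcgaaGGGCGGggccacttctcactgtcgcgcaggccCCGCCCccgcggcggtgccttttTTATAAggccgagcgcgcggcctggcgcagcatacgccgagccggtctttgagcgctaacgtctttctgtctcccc
This window holds 6 matches to GGGCGG, a motif found in 44.95% of 35116 such windows, and 2 overlapping matches to TATAA, found in 20.44%, the first at 26 bases before the start. It has 73.33% G and C, more than 86.99% of windows, and 41 CpG sites. The windows at chr6:134177812-134178111 and chr6:134318063-134318362 have 43% and 38% G and C and no match to GGGCGG, and hold 1 and 2 matches to TATAA. A half-site of the glucocorticoid receptor, AGAACA, found in 14.79% of windows, had 1 match in the middle one, 5 bases after the start. CCAAT (34.61% of windows) and GAANNTTC, the core of a heat shock element (6.769%), had 0 matches in all 3. A match is a string of letters, not a site in use.

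In untreated cells, the brighter ATP2A3 probe read a median background-subtracted Cy3 intensity of 558, 489.5 and 361.5 on cisplatin arrays 1, 2 and 3, and 712 and 746.5 on electroporation arrays 1 and 2. It was brighter than 86.6% ± 2.76 (SD, n = 5) of all probes. The dimmer ATP2A3 probe read 199, 205.5, 111.5, 170 and 197.5 in the same order and was brighter than 79.6% ± 3.70 of probes. The SGK1 probe read 396.5, 302, 223, 268 and 367 and was brighter than 83.2% ± 0.618 of probes. These ranks average all spots of a probe, so odd single spots enter the spreads of the ATP2A3 probes. The dimmer probe stood at 78.1% without the last listed spots of the second electroporation array. Without spots over 4-fold from the median of their probe, the brighter probe stood at 87.2%. All of these lay in the upper part of the array. With all spots, SGK1 kept the steadiest rank, between 82.3% and 83.9%. In single spots, local background was exceeded in both channels by 20 of 20 spots of the dimmer ATP2A3 probe and 20 of 20 of SGK1, and by 19 of 20 of the brighter ATP2A3 probe. The exception was a spot on cisplatin array 1 that read 15 in Cy3 and 10 in Cy5 over backgrounds of 12 and 13. Brightness depends on the probe as well as on the RNA, so the levels of the 2 genes are not set against each other.

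**Figure D1:**
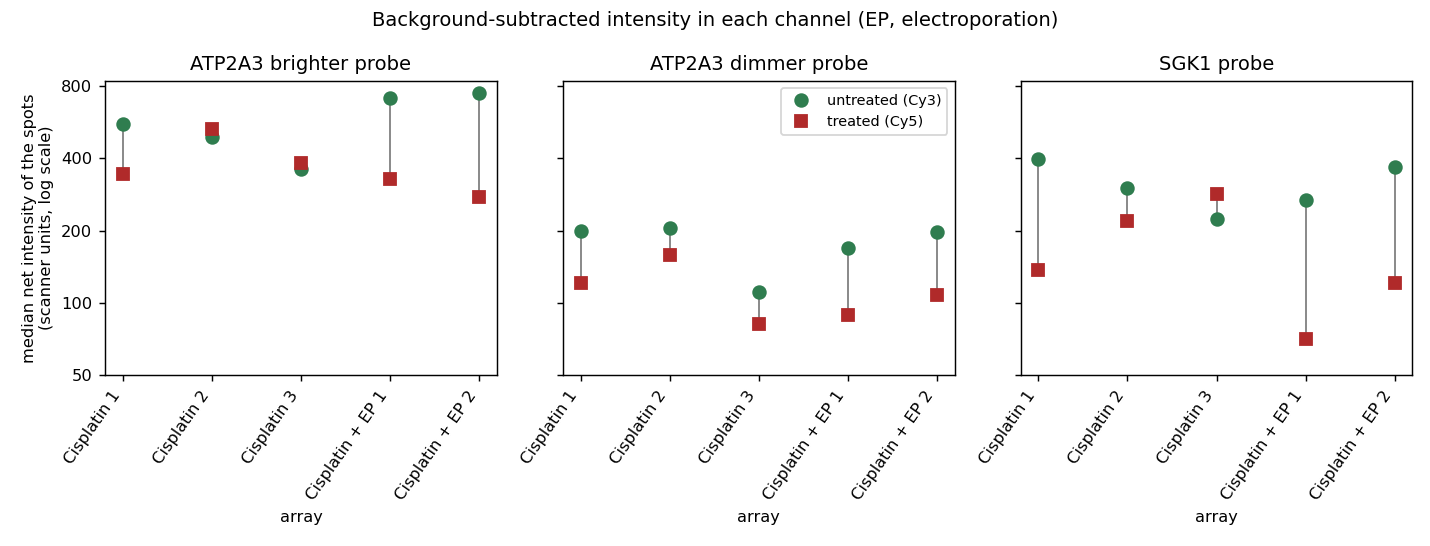
Background-subtracted intensity (scanner units, log scale) of each probe on the 5 arrays, as the median of its 4 spots, for untreated cells in Cy3 and treated cells in Cy5. SGK1 on the first electroporation array has the widest gap, 268 against 71, and Cy5 lies above Cy3 for SGK1 only on the third cisplatin array, 285 against 223; array-wide differences between the dyes have not been removed here.

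The first comparison asked how both genes stood after cisplatin alone, with values as the normalized log2 ratio of treated over untreated cells. ATP2A3 stood near the untreated level, within the spread between arrays. Its brighter probe gave -0.050, 0.14 and -0.019 on cisplatin arrays 1, 2 and 3, with SDs over the spots of 0.063, 0.20 and 0.25, and a mean of 0.025 ± 0.10 (SD, n = 3; limma SE 0.064). The value on array 1 includes the spot that did not exceed background. Without that spot the array stood at -0.028 and the mean at 0.032. The arrays lay on both sides of 0, and no member was below 0 on all 3 cisplatin arrays, as 317 of 1461 probes (21.7%) were. Its dimmer probe gave 0.040, -0.19 and -0.10, and a mean of -0.084 ± 0.12 (SD, n = 3; SE 0.10). The probes of the pump differed little on arrays 1 and 3, the brighter minus the dimmer being -0.090, 0.33 and 0.083.

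SGK1 did not behave alike on the cisplatin arrays. Its log2 ratio was -0.63 on array 1, -0.43 on array 2 and 0.30 on array 3, with SDs over the spots of 0.45, 0.45 and 0.28. All 4 spots were below 0 on the first, 3 of 4 on the second and 1 of 4 on the third. Of the 1461 probes, 12 lay lower than SGK1 on array 1 and 17 on array 2, whereas 1422 lay lower on array 3. The mean was -0.25 ± 0.49 (SD, n = 3; SE 0.18), which is smaller than the spread between these arrays. Within treatments, the SD between arrays was 0.42 for SGK1, against a median of 0.118 over the 1461 probes, 0.133 for the brighter ATP2A3 probe and 0.232 for the dimmer. Without the third array the SGK1 mean was -0.53, and without the first it was -0.062.

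**Figure D2:**
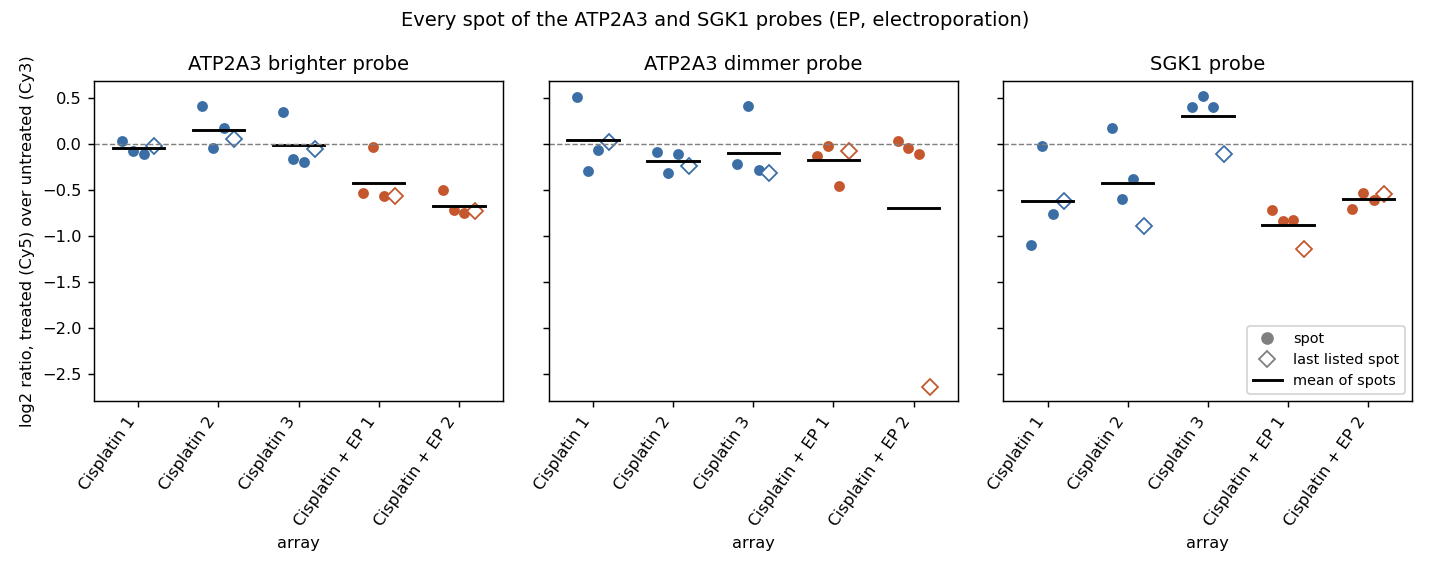
Normalized log2 ratio (treated over untreated) of every spot of the brighter ATP2A3 probe, the dimmer ATP2A3 probe and the SGK1 probe, by array; open diamonds are last listed spots and bars are means of the 4 spots. The electroporation arrays lie below the cisplatin arrays for the brighter ATP2A3 probe, 1 spot at -2.64 pulls down the dimmer probe on the second electroporation array, and the array means of SGK1 range from -0.89 to 0.30.

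After cisplatin with electroporation, the brighter ATP2A3 probe was low on both arrays. It gave -0.42 (SD over spots 0.26) and -0.68 (SD over spots 0.12) on arrays 1 and 2, and all 4 spots of each array were below 0. On array 1, 3 spots lay between -0.57 and -0.54 and 1 at -0.031, while on array 2 the spots lay between -0.75 and -0.50. The mean of -0.55 ± 0.18 (SD, n = 2; SE 0.078) is a linear ratio of 0.683 to untreated cells, and it ranked 15 from the lowest among 1461 probes. Without the last listed spots of the second array the mean was -0.54. The authors' deposited table gave -0.43 and -0.71 for the same arrays. The size depended on how the dyes were balanced, and with centring on the median of the array in place of loess it was -0.91.

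The dimmer ATP2A3 probe gave -0.18 and -0.69, with a mean of -0.43 ± 0.37 (SD, n = 2; SE 0.13). On the second array, its last listed spot read 3961 in Cy3 and 415 in Cy5, while the other 3 spots read 187 to 221 in Cy3 and 106 to 124 in Cy5. The ratio of that spot was -2.64, and the other 3 lay between -0.11 and 0.026. Without it the array stood at -0.045 and the mean at -0.11 (SE 0.066), and the rank of the probe among the 1461 moved from 37 to 335. The low value of the dimmer probe rested on 1 spot, and the 2 probes of the pump differed on electroporation array 1 too, the brighter minus the dimmer being -0.25.

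SGK1 was low on both electroporation arrays, at -0.89 (SD over spots 0.18) and -0.60 (SD over spots 0.081). All 4 spots of each array were below 0, between -1.14 and -0.54. In intensity, Cy5 read 71 against 268 in Cy3 on electroporation array 1 and 121.5 against 367 on electroporation array 2. Array-wide differences between the dyes have not been removed from these intensities, so their ratios are lower than the normalized ones. The mean was -0.74 ± 0.20 (SD, n = 2; SE 0.22), a linear ratio of 0.597 to untreated cells, and it ranked 9 from the lowest of 1461 probes. The last listed spots did not carry it, as the mean without them was -0.75. Correction of the background without an offset gave -0.95, plain subtraction -0.99 and median centring -1.08. No dyes were exchanged in this study, so a preference of a probe for 1 dye stays in every ratio to untreated cells.

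Among all probes, a mean at or below -0.4 on the electroporation arrays was found for 48 of 1461, or 3.29%, and a ratio below 0 on both of these arrays for 489, or 33.5%. Without the last listed spots of the second array these counts were 41 and 469. The 3 probes of ATP2A3 and SGK1 are in both counts, and nothing is read from this, since the genes were chosen on these values. By limma's test with Benjamini-Hochberg adjustment, 0 of 3048 probes (0%) passed at 0.05 for cisplatin with electroporation, and the smallest adjusted p was 0.0932. At an unadjusted p under 0.05, 304 probes (9.97%) were counted, 213 lower (6.99%) and 91 higher (2.99%). For cisplatin alone these figures were 0 of 3048 (0%) with a smallest adjusted p of 0.106, and 337 at an unadjusted p under 0.05 (11.1%), 186 lower (6.1%) and 151 higher (4.95%). Other processing gave between 0 and 35 called probes for the combination, except that 93 were called without its first array, when the group rested on the second array alone and was assumed to vary like the cisplatin arrays.

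**Figure D3:**
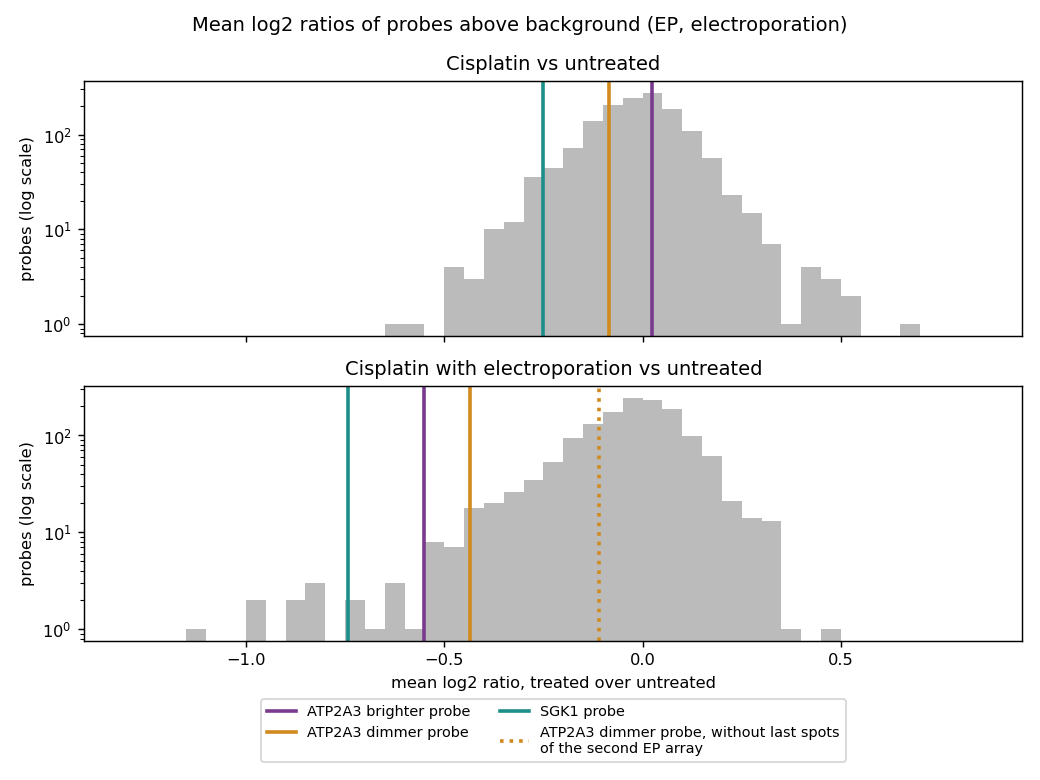
Distribution of the mean log2 ratio over the 1461 probes above background (log scale of probe number), after cisplatin (top, n = 3 arrays) and cisplatin with electroporation (bottom, n = 2 arrays), with vertical lines at the ATP2A3 and SGK1 probes. The solid lines lie in the low tail in the bottom panel, at -0.55, -0.43 and -0.74, and the dotted line shows the dimmer ATP2A3 probe at -0.11 without the last listed spots of the second array.

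The third comparison set the combination against cisplatin alone, in which a dye preference that is constant for a probe cancels. For the brighter ATP2A3 probe, both electroporation arrays lay below all 3 cisplatin arrays, with a difference of -0.58 (SE 0.10), and no array of 1 group reached the other. Such a separation was found for 148 of 1461 probes (10.1%), or 137 without the last listed spots, with a further 92 (6.3%) separated the other way in both cases, and nothing is read from it for a gene chosen on these arrays. The dimmer probe overlapped, since its first electroporation array at -0.18 lay above the second cisplatin array at -0.19. Its difference was -0.35 (SE 0.16), and -0.026 without the last listed spots. SGK1 overlapped as well, since the first cisplatin array at -0.63 lay below the second electroporation array at -0.60. Its difference was -0.49 (SE 0.28), and -0.22 without the third cisplatin array. In this comparison 0 of 3048 probes passed (0%), with 107 at an unadjusted p under 0.05 (3.51%), 68 lower (2.23%) and 39 higher (1.28%), and 47 passed without the first electroporation array.

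**Figure D4:**
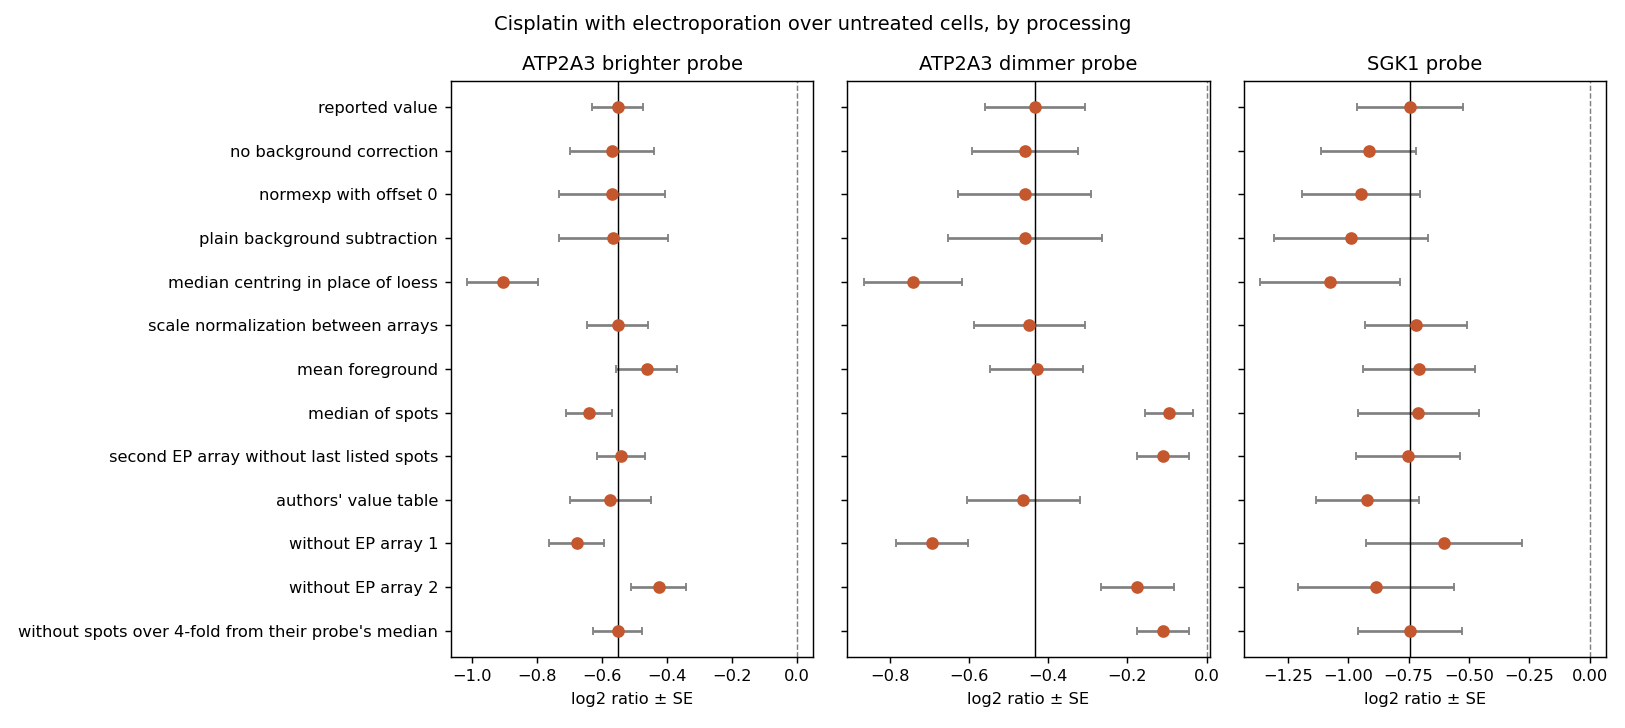
Log2 ratio ± SE after cisplatin with electroporation for each probe (horizontal) under the reported processing and the alternatives that act on these 2 arrays (vertical); the solid line is the reported value. The brighter ATP2A3 probe stays between -0.91 and -0.42 and SGK1 between -1.08 and -0.60. The dimmer ATP2A3 probe moves to -0.11 or higher when spots are left out or the median of spots is taken. It stands at -0.18 without the whole second electroporation array.

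ATP2A2, the sister pump, stood near 0 in both treatments. Its ratios were 0.065, 0.019 and -0.041 on the cisplatin arrays and 0.085 and -0.00046 on the electroporation arrays, with means of 0.015 (SE 0.037) and 0.042 (SE 0.045). ATP2A2 is 1 of 14 measured genes other than ATP2A3 in the list of 62 calcium pumps, channels and exchangers, of which 11 were above background. By limma's adjusted p, 0 of the 14 passed in either direction in any comparison, against 1 higher and 1 lower after cisplatin and 1 higher and 2 lower after the combination at an unadjusted p under 0.05, and 0 higher and 1 lower between the treatments. At that unadjusted p, limma counted 11.1%, 9.97% and 3.51% of all probes in the same order of comparisons. The median of the 14 genes was 0.043 after cisplatin and 0.017 after the combination, beside -0.0014 and -0.0066 over all probes. CACNA1H, a T-type calcium channel, stood at -0.10 (SE 0.11) and -0.41 (SE 0.13), with -0.12 and -0.71 on the single electroporation arrays, the latter -0.52 without its last listed spot. VDAC2 and VDAC3, pores of the outer mitochondrial membrane, stood at 0.14 (SE 0.051) and -0.13 (SE 0.048) after the combination, and the L-type channel CACNA1F at -0.20 (SE 0.074) after cisplatin.

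Calcium binding proteins and calcium-dependent enzymes had 26 measured genes of 77, with 14 above background, and 0 passed in any comparison. At an unadjusted limma p under 0.05, 2 were higher and 1 lower after cisplatin, and 1 higher and 1 lower after the combination. Between the treatments there were 0. The shares over all probes were 11.1%, 9.97% and 3.51% in the same order. The median was -0.0011 after cisplatin and -0.025 after the combination. HSPA5, the chaperone of the endoplasmic reticulum, stood at -0.15 (SE 0.060) and -0.25 (SE 0.073) by its brightest probe, while its other probe, not above background, gave 0.024 and -0.044. CAMK1, a calmodulin-dependent kinase, stood at 0.23 (SE 0.044) and 0.16 (SE 0.054). STC1, a secreted hormone of calcium balance, gave 0.25 (SE 0.086) with cisplatin alone and 0.010 (SE 0.11) with pulses added. S100B, a calcium-binding protein and melanoma marker, stood at -0.25 (SE 0.13) and -0.36 (SE 0.16), and its -0.69 on the second electroporation array was -0.95 without the last listed spot. NFATC3, a transcription factor activated by calcineurin, gave 0.20 and -0.57 on the electroporation arrays, and -0.053 in place of the latter without its last listed spot.

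In the SGK1 pathway, 21 of 60 listed genes other than SGK1 were measured, 14 of them above background, and 0 passed in any comparison. At an unadjusted limma p under 0.05, 3 were higher and 2 lower after cisplatin, and 2 higher and 0 lower after the combination. Between the treatments, 1 was higher and 1 lower. The shares over all probes were 11.1%, 9.97% and 3.51% in the same order. The median of the 21 genes was -0.0024 after cisplatin and -0.0020 after the combination. Upstream, PIK3CD, a catalytic subunit of phosphoinositide 3-kinase, gave -0.27 (SE 0.076) with cisplatin alone and 0.031 (SE 0.093) with pulses added. NR3C1, the glucocorticoid receptor, stood at -0.13 (SE 0.18) and -0.19 (SE 0.22), with 0.32 and -0.70 on the single electroporation arrays. The latter became -0.041 without its last listed spot, so the negative mean for the combination rested on that spot. SGK2, SGK3, NEDD4L, NDRG1 and TSC22D3 had no probe annotated to them, so they were not measured. Among targets and partners, FOXO3 stood at -0.00050 (SE 0.030) and 0.012 (SE 0.037). GSK3B, a kinase that AKT and SGK1 both phosphorylate, stood at 0.11 (SE 0.042) and 0.22 (SE 0.052), and the phosphoprotein adaptor YWHAQ at -0.0024 (SE 0.036) and 0.25 (SE 0.044). AKT1 stood at -0.021 (SE 0.11) and -0.29 (SE 0.14), with 0.022 and -0.60 on the single electroporation arrays, the latter -0.57 without its last listed spot. Without the first electroporation array, 7 genes of the lists passed for the combination, on the second array alone. Of these, 5 (NFATC3, NR3C1, ATP6AP1, PLCG2 and KCNN4) had an odd last listed spot on that array and lay between -0.053 and 0.026 there without it; the others were AKT1 and CACNA1H.

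Carriers of sodium, potassium, chloride and protons, the channels and pumps that SGK1 is known to regulate among them, had 7 measured genes of 62, with 5 above background and 0 past the test in any comparison. At an unadjusted limma p under 0.05, 1 was higher after cisplatin and 0 after the combination or between the treatments. The shares over all probes were 11.1%, 9.97% and 3.51% in the same order. The median of the 7 genes was -0.013 after cisplatin and -0.057 after the combination. TTYH1, a tweety family membrane protein, had a cisplatin ratio of 0.45 (SE 0.12) and one of 0.31 (SE 0.15) for the combination. SLC12A1, a sodium, potassium and chloride cotransporter, gave 0.032 and -0.71 on the electroporation arrays, and ATP6AP1, a subunit of the proton pump, gave 0.11 and -0.63. Without the last listed spot of the second array these low values became -0.064 and 0.021. KCNJ1, an inward rectifier potassium channel, stood at -0.082 (SE 0.046) and -0.057 (SE 0.057) by its brightest probe. Its other probe, also above background, stood at -0.032 (SE 0.060) and 0.27 (SE 0.073), with 0.13 and 0.42 on the electroporation arrays, so the probes of KCNJ1 disagree for the combination. The reference gene GAPDH gave -0.28 (SE 0.059) with cisplatin alone and -0.38 (SE 0.073) with pulses added, and ACTB gave 0.028 (SE 0.069) and -0.30 (SE 0.085).

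**Figure D5:**
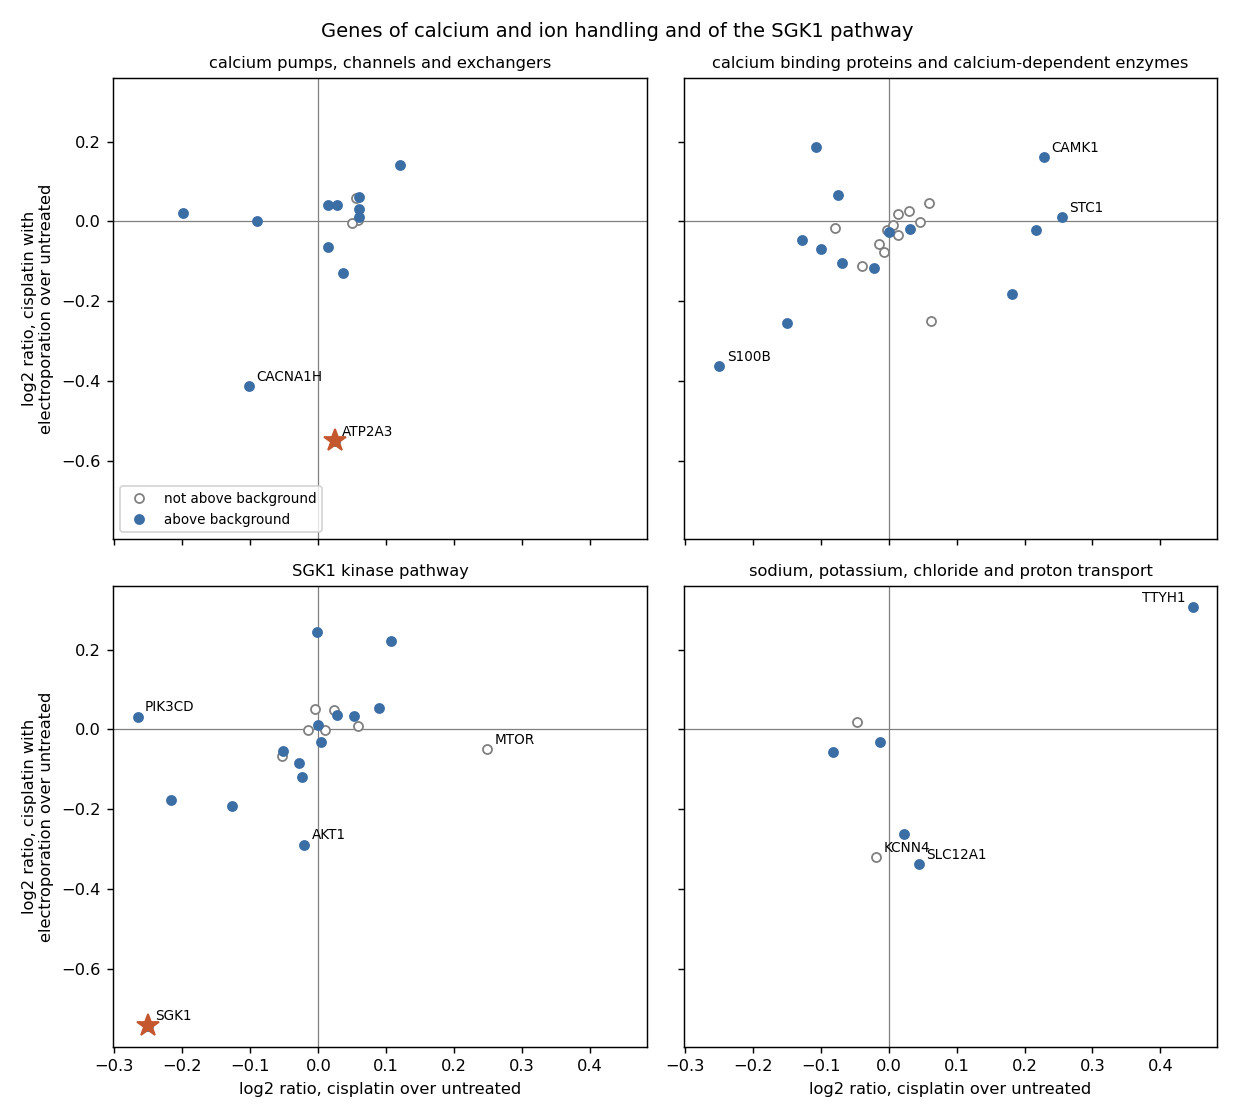
Mean log2 ratio after cisplatin (horizontal, n = 3 arrays) against that after cisplatin with electroporation (vertical, n = 2 arrays) for each measured gene of the lists, by its brightest probe; filled points are above background and stars are ATP2A3 and SGK1. ATP2A3 lies at 0.025 and -0.55 and SGK1 at -0.25 and -0.74, lowest on the vertical axis of their panels.

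The probes whose 5 ratios lay closest to those of each member were taken by the root mean square difference over the arrays, among 1244 probes of other named genes for ATP2A3 and 1245 for SGK1. For the brighter ATP2A3 probe the closest was LDHA, a subunit of lactate dehydrogenase, at 0.121, followed by NFE2, TP53I3, OAZ1 and LY6E at 0.149 to 0.173. Without the last listed spots of the second electroporation array, a repeat added after the data were seen, LDHA was again the closest at 0.124, and none of the other 4 was among the nearest 5. For the dimmer ATP2A3 probe, the nearest with all spots were PC, SNAPC2, CACNA1H, CYP21A2 and MLANA at 0.0479 to 0.105. They were ranked against its value of -0.69 on the second electroporation array, which rested on 1 spot. Without the last listed spots, of all probes and of this one, only SNAPC2 remained among the 5, at 0.0606, and PUM3, TMEM94, RAB10 and TXNRD1 lay closer, at 0.0409 to 0.0601. SGK1 was closest to NQO1, a quinone reductase, at 0.214, followed by EEF1A1, CD63, H4C16 and PPIA at 0.260 to 0.286. Without the last listed spots NQO1, EEF1A1, CD63 and PPIA remained among its 5, at 0.211 to 0.299. Of the genes nearest with all spots, TP53I3, CYP21A2, EEF1A1 and H4C16 have further probes, and the likeness holds for the probe that was nearest. The probes of ATP2A3 were 0.194 apart from each other with all spots and 0.336 without the last listed spots. SGK1 was 0.442 from the brighter and 0.485 from the dimmer probe, and 0.441 and 0.547 without those spots. With 5 arrays that share a reference cell line these distances describe the values only.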

How the data were processed

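The deposited scanner files hold the median foreground intensity and local background intensity of each spot in both channels, unnormalized, per the file headers. Per the labels, untreated RNA was in Cy3 and treated RNA in Cy5. No header names the dye of a channel: the first was read as Cy3, as the labels number them, and the authors' deposited log2 ratios follow the second over the first. How that table was normalized is not given in the sources used here, and it served as an alternative.

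Background was corrected by normexp (offset 50) and ratios by loess within each array (span 0.3) in limma 3.58.1 (R 4.3.3), and the spots of a probe were averaged. The offset draws ratios toward 0. Above background means that a share of 0.5 or more of the spots of a probe read over 2 standard deviations above the local background. One limma model over the 5 arrays, with a mean per treatment (residual df 3, prior df 2.47), gave SEs and two-sided p-values, adjusted by Benjamini and Hochberg over 3048 probes at 0.05. The number of arrays limits the precision. The procedure was run on simulated data, with planted changes larger than the treatment means of ATP2A3 and SGK1 and noise drawn separately for each array. It does not show how changes of the size reported here are recovered.

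The members and lists were chosen with earlier results of these data known. The rule for named genes took both members, up to 4 genes per list and comparison with the largest ratio among probes above background, the 5 nearest genes for each probe, and 13 fixed genes, of which 6 were measured; the text names a selection. Each gene was read by its brightest probe. Removal of spots over 4-fold from the median of their probe was added after the data were seen.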

Additional observations from a re-analysis of the deposited data

Results flagged for a closer look

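PIK3CD, the catalytic subunit of phosphoinositide 3-kinase in the SGK1 pathway list, stood on opposite sides of 0 in the 2 treatments. Its log2 ratio was -0.074, -0.48 and -0.25 on the cisplatin arrays and 0.046 and 0.017 on the electroporation arrays. The means differed by 0.30 (SE 0.12). Its last listed spot on the second electroporation array was over 4-fold from the median of the probe in Cy3, and without it that array stood at 0.024. Both electroporation arrays lay above all 3 cisplatin arrays, as was found for 92 of the 1461 probes above background (6.3%). PIK3CD was flagged by these same values. That every array lay on its own side of 0 was not tested in itself, and limma's adjusted p for the difference was 0.994.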

How the results depend on the processing

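Of the values recomputed under alternatives, 277 moved by less than the spread between arrays or, for counts, stayed close to the reported count. Another 24 moved by more. Part of the 277 could not move, since changing the variance model, the probes tested or the other group's arrays leaves a probe's mean as it was. The dimmer ATP2A3 probe after the combination is also among the 277. It stood at -0.095 with the median of spots and -0.11 without the last listed spots, against the reported -0.43. Its spread of 0.37 (SD, n = 2) includes the odd spot. Without background correction 4 probes passed for cisplatin and 10 for the combination. With the authors' deposited table these counts were 1 and 8 of the 1281 probes with a value on every array, so that the number of tests changed with the values. For the combination, 35 passed with median centring, 1 with scale normalization and 11 when only the probes above background were tested. Leaving out each array in turn gave 0 to 93 probes and 0 to 7 list genes for the combination, and 0 to 47 probes and 0 to 5 list genes for the difference between treatments; the highest counts came without the first electroporation array, and 1 probe passed for the combination without the third cisplatin array.

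With median centring, the ATP2A3 brighter probe stood at -0.098 for cisplatin, -0.91 for the combination and -0.81 for the difference, the dimmer probe at -0.23 for cisplatin, and SGK1 at -1.08 for the combination. SGK1 stood at -0.95 there with an offset of 0 and -0.99 with plain subtraction. The difference for the dimmer probe was 0.057 with the median of spots, -0.026 without the last listed spots of the second electroporation array and -0.026 without spots over 4-fold from the median, and between -0.61 and -0.092 with each array left out. The cause of the other moves was not tested.

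A fit with the replicate number as a block dropped the third cisplatin array, and 0 probes passed. It gave SGK1 -0.53 for cisplatin and -0.22 for the difference, and the brighter ATP2A3 probe 0.047 and -0.60. The deviations of same-numbered arrays from their group means correlated at 0.336 and 0.120 across probes. With 2 electroporation arrays these deviations mirror each other, and cisplatin array 3 with electroporation array 2 gave 0.282. The log2 ratios themselves correlated at 0.611 between the arrays numbered 1, the highest of all pairs, and at 0.329 between those numbered 2. What same-numbered arrays share beyond the number was not tested. Print-tip loess and a rule on flagged spots were not run.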

Other observations

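MTOR, the kinase that activates SGK1 within a larger complex, was singled out after its values were seen. Its probe was near the floor, above background in Cy3 on 1 of 5 arrays. It gave 0.35, 0.27 and 0.12 on the cisplatin arrays and -0.019 and -0.080 on the electroporation arrays, so that the groups did not overlap, as was found for 148 of the 1461 probes above background (10.1%), of which MTOR is not one. The difference of -0.30 (SE 0.081) had a limma adjusted p of 0.994.

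Of the 7 melanocyte lineage markers above background, 2 had a mean above 0 after cisplatin and below 0 after the combination, 2 were above 0 in both and 3 below 0 in both. The first 2 were EDNRB, the endothelin receptor, at 0.20 and -0.24, and MITF, a transcription factor, at 0.18 and -0.082. TYRP1 and SOX10 stood above 0 in both and MLANA, TYR and S100B below. All 7 means were lower after the combination than after cisplatin, and none of the 7 passed the test in any comparison. The differences of TYR (-0.031, SE 0.13), SOX10 (-0.093, SE 0.14) and S100B (-0.11, SE 0.21) were smaller than their SEs, and the other differences larger. Over the 1461 probes the median difference was -0.012, so that more of them were lower than higher, and nothing is read from the count. Without its last listed spots the second electroporation array held 37 probes at or below -0.5 of the 80 that were there with them.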
